A study of Mus musculus with 16 samples.

Results

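The immunoglobulin light-chain variable (V) genes are described here in BCR-ABL1p185+ leukemic cell lines. Members were all genes whose mouse symbol starts with Igkv (kappa) or Iglv (lambda), which gave 163 of 50686 counted genes, 160 of them Igkv genes on chromosome 6 and 3 Iglv genes on chromosome 16. RNA was sequenced from 4 Cdk8 fl/fl lines, which carry the floxed allele and are labelled wildtype, and from 4 Cdk8Δ/Δ Vav-Cre lines, labelled Cdk8 KO, in which Cdk8 was deleted in the hematopoietic system by Cre under the Vav promoter. All lines came from C57BL/6N bone marrow infected with a retrovirus encoding BCR-ABL1p185 and were derived individually. The study describes them as pro-B cells without surface IgM or IgD. Each line was cultured for 48 h with DMSO or with 1 µM Senexin B, a kinase inhibitor of CDK8 and CDK19, so the 16 libraries form 4 groups of 4. The replicate number in the labels was taken to name the line, because same-numbered libraries of a genotype deviated together. Lines are the replicates, which are unordered and numbered as in the labels. Between genotypes, p-values measure the spread between separately derived lines. For Senexin B and the interaction, fits without a block treat the 2 libraries of a line as independent. Fits with line as a block measure how the response varied between lines.

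A kappa light chain is made by joining 1 V segment to 1 J segment upstream of the constant gene Igkc, a step that follows heavy-chain joining in B-cell development and uses the Rag1 and Rag2 recombinase. Before joining, V segments and the J and constant region can be transcribed in germline form, and pro-B cells carry a surrogate light chain of Vpreb and Igll1 in place of the conventional chain. Reads that fall on a V exon are counted alike whether the segment is joined or not. In a bulk library, fewer cells of a type and less RNA per cell cannot be told apart.

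Library totals lay between 13145876 and 18349425 counts, so 3 counts, the floor used here, corresponded to 0.160 to 0.245 counts per 1000000 (CPM, with library sizes scaled by TMM). Cdk8, counted over the whole gene and so also over exons outside the deleted part, was at 61.7 to 68.6 CPM in the Cdk8 fl/fl lines and 35.25 to 52.0 CPM in the Cdk8Δ/Δ Vav-Cre lines in DMSO, a log2 difference of -0.55 (SE 0.14, adjusted p = 0.897 in edgeR). With Senexin B the genotypes overlapped for Cdk8, at 55.1 to 89.3 CPM in Cdk8 fl/fl and 41.1 to 61.6 CPM in Cdk8Δ/Δ Vav-Cre lines. Of the markers of early B cells, the transcription factor Pax5 was at 784.7 to 1615 CPM and the transcription factor Ebf1 at 693.7 to 1283 CPM in all 16 libraries. The mature B cell list of 6 genes summed to 46.2 to 268.9 CPM, with its marker Ms4a1 at 2.09 CPM or less in all libraries. Other members of that list were higher, with Cd22 at 19.05 to 225.7, Ighd at 7.58 to 49.3 and Cr2 at 2.54 to 40.3 CPM. The plasma cell list of 6 genes summed to 614.6 to 1276 CPM, with Xbp1 at 229.8 to 491.2 CPM, while Tnfrsf17 was at 0 in all but 2 libraries. The T cell, myeloid and erythroid lists reached at most 132.8, 24.7 and 264.2 CPM. Nearly all of the first was the kinase gene Lck, at 17.5 to 132.6 CPM, while Cd3e was at 0.0817 CPM or less, and nearly all of the last was the beta-globin gene Hbb-bt, at 2.75 to 263.5 CPM, while Hba-a2 was at 0. Hbb-bt was highest in Cdk8 fl/fl line 2 and Cdk8Δ/Δ Vav-Cre line 3, the lines with the highest Igkc of their genotypes, and its part in the light-chain values was not tested. In both genotypes, libraries of the same line deviated together from their group means, so line was used as a block where stated.

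The segment with the most reads in every library was Igkv14-111 (ENSMUSG00000095771, GRCm38 chr6:68256389-68256869, plus strand, 2 exons, 368 exonic bases). Its V exon is printed first because more than 1 in 3 kappa V counts of each library fell on this gene. Igkv9-124 and Igkv6-32 are printed because they ranked second most often, and Gm25436 because it lies next to Igkv14-111 and followed its counts. Capitals mark bases that lie in a 50-base window, the read length, which also occurs in the annotated transcripts of another gene; such reads cannot be placed uniquely and were not counted. Sequences are 5′ to 3′ on the gene's own strand and were taken from the GENCODE M21 transcripts of GRCm38, whose gene spans equal those of the files for all 163 members.
Igkv14-111 (V exon, chr6:68256572-68256869, plus strand): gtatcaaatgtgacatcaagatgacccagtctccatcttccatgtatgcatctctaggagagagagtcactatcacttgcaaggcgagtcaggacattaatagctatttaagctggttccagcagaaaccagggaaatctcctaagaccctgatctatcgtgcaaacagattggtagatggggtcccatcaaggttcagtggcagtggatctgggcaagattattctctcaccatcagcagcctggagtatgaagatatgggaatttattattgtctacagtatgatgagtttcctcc
Igkv9-124 (V exon, chr6:67942074-67942371, minus strand): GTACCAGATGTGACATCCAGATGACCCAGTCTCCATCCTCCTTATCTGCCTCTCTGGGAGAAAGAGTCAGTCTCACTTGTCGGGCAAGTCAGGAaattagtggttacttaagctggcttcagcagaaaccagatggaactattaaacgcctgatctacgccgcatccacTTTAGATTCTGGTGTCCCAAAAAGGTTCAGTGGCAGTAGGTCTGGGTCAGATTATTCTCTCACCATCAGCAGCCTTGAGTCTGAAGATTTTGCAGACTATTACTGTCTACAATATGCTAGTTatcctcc
Igkv6-32 (V exon, chr6:70074024-70074321, minus strand): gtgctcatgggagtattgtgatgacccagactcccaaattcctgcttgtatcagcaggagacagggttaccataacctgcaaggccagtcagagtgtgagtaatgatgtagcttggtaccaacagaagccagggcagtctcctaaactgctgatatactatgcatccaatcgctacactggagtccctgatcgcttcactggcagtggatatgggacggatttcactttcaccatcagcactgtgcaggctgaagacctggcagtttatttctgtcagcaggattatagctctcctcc
Gm25436 (whole gene, chr6:68257394-68257538, minus strand): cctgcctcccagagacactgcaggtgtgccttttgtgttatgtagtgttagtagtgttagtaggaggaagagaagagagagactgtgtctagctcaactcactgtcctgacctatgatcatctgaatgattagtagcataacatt
The Igkv14-111 exon has no capitals, and none of the 319 windows of its transcript occurred in another gene. The same held for the 317 windows of Igkv6-32, whereas 95 of the 304 windows of Igkv9-124 were shared, so its counts, and those of any member with shared windows, may miss part of its reads. Shared windows were found in 120 of the 163 members.

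Light-chain V transcripts were rare in these lines, and kappa exceeded lambda throughout. All members together took between 0.00170% and 0.0112% of the counts of a library. Of the 163 members, 36 had no count in any library, 127 had at least 1 count, and 24 had 50 counts or more over all libraries. Summed over the 16 libraries, 11043 counts fell on Igkv genes and 175 on Iglv genes. The GENCODE M21 annotation classes 103 members as V genes and 60 as V pseudogenes, and 661 of the Igkv counts (5.99%) fell on the 60 Igkv pseudogenes.

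The summed Igkv level differed by line. In DMSO, Cdk8 fl/fl lines 1 to 4 had 56.9, 20.1, 28.0 and 23.6 CPM (mean 32.2 ± 16.8 SD, n = 4). The Cdk8Δ/Δ Vav-Cre lines 1 to 4 had 20.2, 42.0, 110.3 and 73.2 CPM (mean 61.4 ± 39.2 SD, n = 4). The genotypes overlapped: Cdk8Δ/Δ Vav-Cre lines 3 and 4 were above all control lines, and line 1 was close to the lowest of them. The difference of the mean log2 levels, Cdk8Δ/Δ Vav-Cre minus Cdk8 fl/fl, was 0.79 in DMSO and 0.50 with Senexin B, and the sum over the members was given no test. Cdk8Δ/Δ Vav-Cre lines 3 and 4 were also led by the same heavy-chain V segment, as were Cdk8 fl/fl lines 1 to 3 by another on few counts (last paragraph). With the former 2 lines left out the differences were -0.02 and -0.10, an alternative chosen after the data were seen. These 2 lines had the highest Igkv totals of their genotype in both treatments, so leaving them out had to lower the difference and tests nothing about genotype. With Senexin B, the Cdk8 fl/fl lines had 74.2, 23.2, 28.8 and 17.4 CPM (mean 35.9 ± 26.0 SD, n = 4), and the Cdk8Δ/Δ Vav-Cre lines 19.4, 41.4, 85.1 and 50.1 CPM (mean 49.0 ± 27.3 SD, n = 4). Within a line, the ratio of Senexin B to DMSO ran from 0.684 to 1.30, and the total was higher in 3 and lower in 5 of the 8 lines. The mean log2 ratio per line was 0.046 ± 0.36 (SD, n = 4) in Cdk8 fl/fl lines and -0.25 ± 0.25 (SD, n = 4) in Cdk8Δ/Δ Vav-Cre lines. Jchain, the joining chain of secreted antibody, was also highest in Cdk8Δ/Δ Vav-Cre lines 3 and 4, at 51.6 to 109 CPM against 12.4 CPM or less in the other 12 libraries, and its part in the Igkv difference was not tested.

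**Figure D1:**
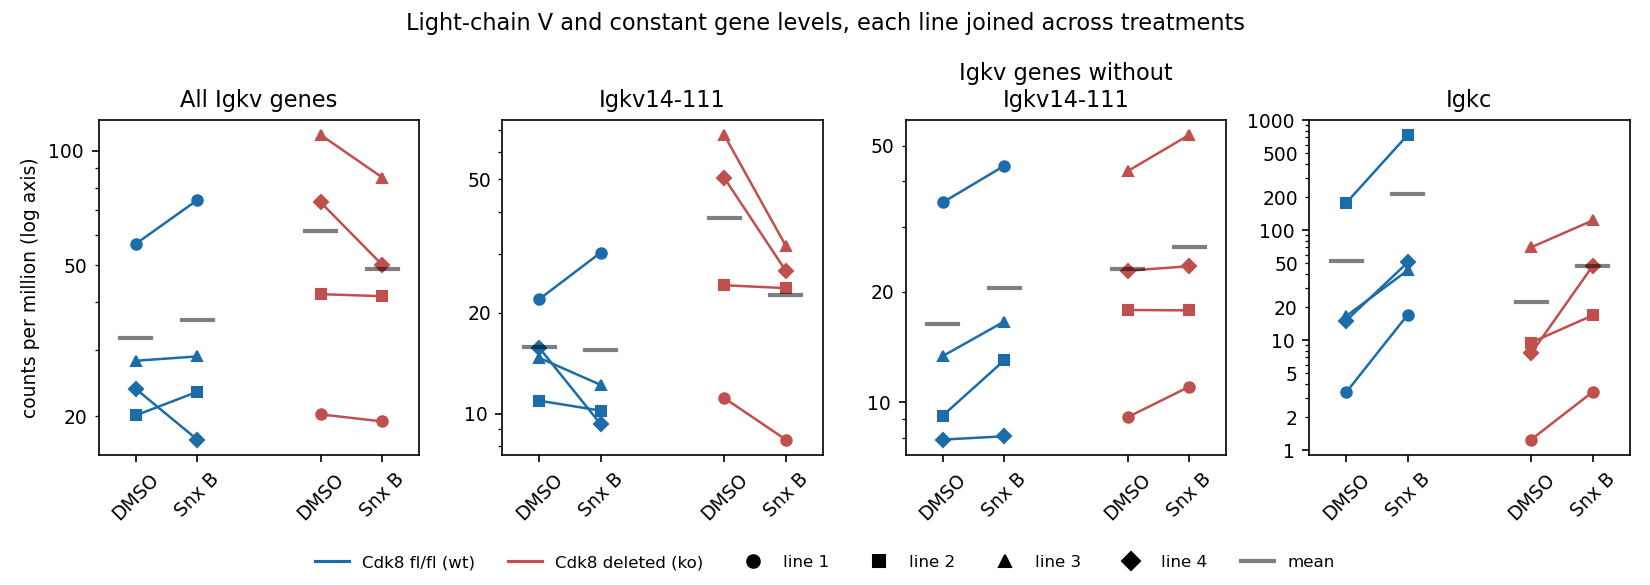
Levels in CPM (log axes that differ between panels) of all Igkv genes, Igkv14-111, all Igkv genes without it, and Igkc; lines join the 2 treatments of each cell line and grey bars are group means. The Igkv totals of the genotypes overlap, Igkv14-111 is lower with Senexin B in 7 of 8 lines, and Igkc is higher with Senexin B in all 8 lines.

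Igkv14-111, a member of the Igkv14 family of 8 genes, held first rank by per-length level (RPKM, CPM per 1000 exonic bases) in all 16 libraries and by counts as well. In DMSO it was at 21.9, 10.9, 14.7 and 15.7 CPM in Cdk8 fl/fl lines 1 to 4 and at 11.1, 24.1, 67.7 and 50.45 CPM in the Cdk8Δ/Δ Vav-Cre lines. With Senexin B it was at 30.2, 10.2, 12.2 and 9.30 CPM in Cdk8 fl/fl lines and at 8.38, 23.7, 31.6 and 26.65 CPM in Cdk8Δ/Δ Vav-Cre lines. Cdk8Δ/Δ Vav-Cre lines 2, 3 and 4 were above all Cdk8 fl/fl lines in DMSO and line 1 was not, and with Senexin B the genotypes overlapped more widely. It took 36.5% to 67.5% of the summed per-length level of all members, and its level was 1.60 to 14.6 times that of the next segment.

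The share of Igkv counts on Igkv14-111 was lower with Senexin B in 7 of the 8 lines. In DMSO the share was 38.5, 54.4, 52.4 and 66.6% in Cdk8 fl/fl lines 1 to 4 and 55.1, 57.5, 61.4 and 68.9% in Cdk8Δ/Δ Vav-Cre lines. With Senexin B it was 40.7, 44.0, 42.4 and 53.5% in Cdk8 fl/fl lines and 43.2, 57.1, 37.2 and 53.2% in Cdk8Δ/Δ Vav-Cre lines. Cdk8 fl/fl line 1 was the exception, and Cdk8Δ/Δ Vav-Cre line 2 moved by less than its counting error. Exact (Clopper-Pearson) 95% binomial intervals, which cover counting error only, did not overlap between the treatments in 5 lines: Cdk8 fl/fl lines 3 and 4 and Cdk8Δ/Δ Vav-Cre lines 1, 3 and 4. In Cdk8Δ/Δ Vav-Cre line 3, where the share moved most, the intervals were 59.1 to 63.7% in DMSO and 34.6 to 39.8% with Senexin B. The rest of the Igkv genes, summed, had a ratio of Senexin B to DMSO of 0.997 to 1.42 and was higher in 7 of 8 lines (mean log2 ratio 0.23 ± 0.18 SD, n = 8), against -0.39 ± 0.52 (SD, n = 8) for Igkv14-111 alone. The share and the sums were not tested, since they are scores over the members.

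**Figure D2:**
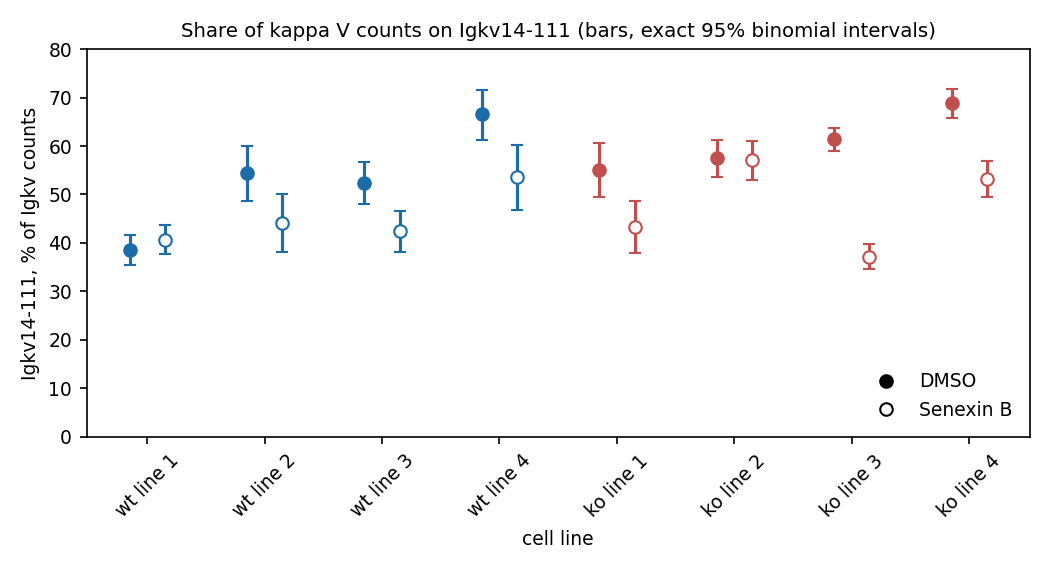
Percent of Igkv counts on Igkv14-111 in each of the 8 lines, with DMSO (filled) and Senexin B (open); bars are exact 95% binomial intervals and cover counting error only. The open point is the lower one in every line but Cdk8 fl/fl line 1, where the values are 38.5% and 40.7%.

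Past the 3′ end of the Igkv14-111 V exon, reads were also counted on a neighbouring gene model. Gm25436, annotated as a small nucleolar RNA on the opposite strand, starts 525 bases beyond the last base of the V gene. Its counts in DMSO were 421, 222, 259 and 273 in Cdk8 fl/fl lines 1 to 4, against 380, 174, 274 and 225 for Igkv14-111. In the Cdk8Δ/Δ Vav-Cre lines they were 212, 413, 1000 and 738, against 179, 386, 1067 and 686. Over the 16 libraries, the ratio of Gm25436 to Igkv14-111 counts stayed between 0.932 and 1.43 while the counts themselves varied from 121 to 1067, which per exonic base is a Gm25436 level of 2.36 to 3.63 times that of Igkv14-111. Joining to a J segment separates a V exon from the DNA that follows it, so reads this far downstream lie outside a joined V gene. The counting ignored strand and the files give no splice or read positions, so which transcripts gave the reads of either gene was not tested. Gm25436 was included after its values were seen, and of the 54 gene models in the Igkv span that carry other names it had the most counts, 6110 in all, with Gm5308 next at 330.

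**Figure D3:**
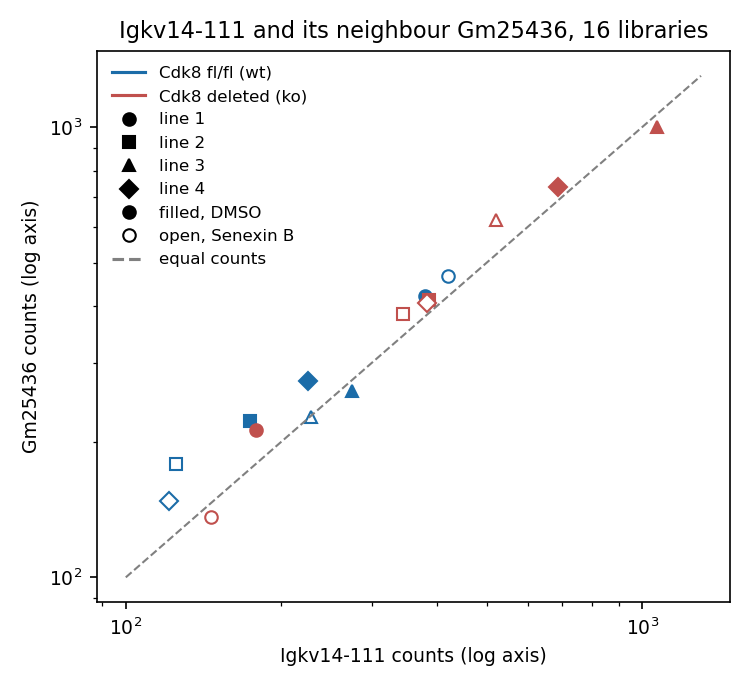
Counts of Gm25436 against counts of Igkv14-111 (log axes) in the 16 libraries; colour gives the genotype, marker shape the line number and filled or open symbols the treatment. The points follow the dashed line of equal counts from 121 to 1067 Igkv14-111 counts.

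Below Igkv14-111 the lines used different segments. Igkv9-124 (ENSMUSG00000096632, 353 exonic bases) was the runner-up in 8 libraries, and reached 37.3 RPKM in Cdk8 fl/fl line 1 with DMSO. It had 0 counts in Cdk8 fl/fl line 4 with DMSO and in Cdk8Δ/Δ Vav-Cre line 1 with Senexin B, and 59 in Cdk8Δ/Δ Vav-Cre line 2 with DMSO. Igkv3-2 (chr6:70698449-70699067, 23.5 kb from Igkj1) was at 112 and 164 counts in Cdk8 fl/fl line 1 (DMSO and Senexin B) and at 38 counts or fewer in every other library. Igkv2-109 and its neighbour Igkv2-107, a pseudogene, stood out in Cdk8Δ/Δ Vav-Cre line 1. Igkv2-109 had 53 and 59 counts there with DMSO and Senexin B, against at most 29 elsewhere, and Igkv2-107 had 22 and 50, against at most 19. Igkv3-7 had 51 and 44 counts and Igkv8-34 18 and 41 in Cdk8Δ/Δ Vav-Cre line 3, and at most 13 and 10 elsewhere; both were named after their values were seen. In Cdk8 fl/fl line 4 the runner-up in DMSO was the lambda segment Iglv3, with 30 counts, against 7 in the Senexin B culture of that line, where Igkv6-32 was the runner-up. Igkv6-32 had 10 or more counts in all 16 libraries, the only member besides Igkv14-111 that did, and 124 and 88 counts in Cdk8Δ/Δ Vav-Cre line 3. The runner-up was the same with and without Senexin B in 4 of 8 lines.

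**Figure D4:**
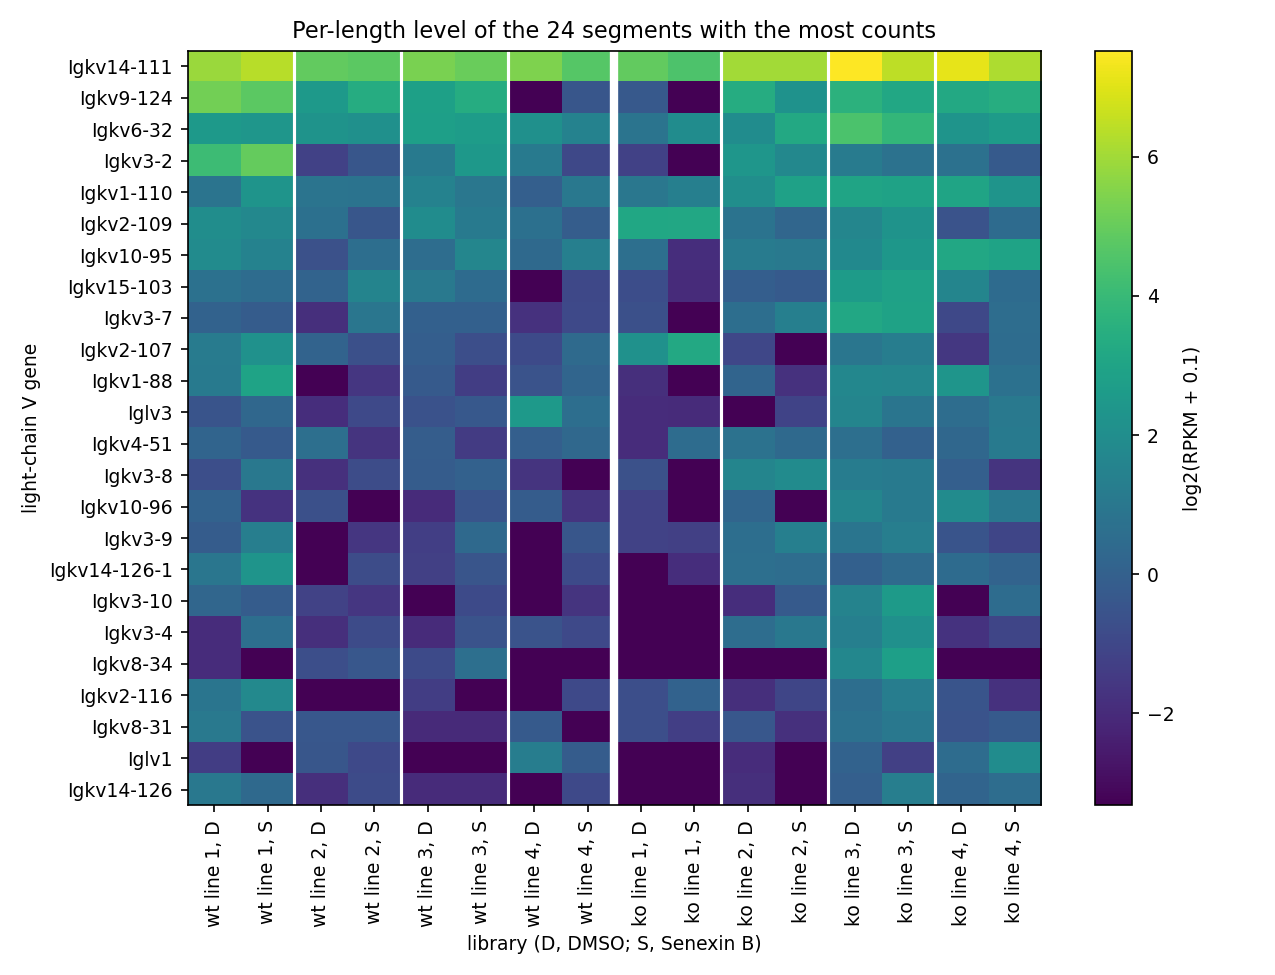
Per-length level, as log2(RPKM + 0.1), of the 24 members with the most counts (rows) in the 16 libraries (columns, both treatments of a line side by side). Igkv14-111 is the brightest row throughout, while Igkv3-2 is bright in Cdk8 fl/fl line 1 and Igkv2-109 and Igkv2-107 in Cdk8Δ/Δ Vav-Cre line 1.

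The number of segments with counts also varied by line. With DMSO or Senexin B, a library had counts on 27 to 103 members and 10 or more counts on 4 to 29. The most were in Cdk8Δ/Δ Vav-Cre line 3, with 84 and 103 members counted, which also had the most Igkv counts. The inverse Simpson index, the effective number of equally abundant segments by per-length level, was 3.55 ± 0.78 and 4.48 ± 0.53 in Cdk8 fl/fl lines (DMSO and Senexin B, SD, n = 4) and 2.72 ± 0.40 and 4.41 ± 1.69 in Cdk8Δ/Δ Vav-Cre lines. It was higher with Senexin B in 7 of 8 lines and differed by 0.013 in the other, Cdk8Δ/Δ Vav-Cre line 2. Over the 23 members with 50 counts or more other than Igkv14-111, 13 of 16 libraries were most like the other library of their own line. The rank correlation of these levels was 0.56 to 0.85 between the libraries of a line (8 pairs), with a median of 0.35 between other lines of the same genotype (48 pairs) and 0.39 between genotypes (64 pairs). These are correlations across genes, which share mapping limits and depth.

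The middle of the kappa locus held few counts. The Igkv genes were placed by their distance to Igkj1, the first joining segment. The 53 genes more than 2000 kb away held 75.9% of Igkv counts, of which Igkv14-111, at 2466 kb, was the main part. Without Igkv14-111, the distant genes held 50.5%, the 50 genes within 1000 kb 37.8%, and the 57 between them 11.7%. By orientation, 75 genes lie on the strand of Igkc and 85 on the opposite strand, where joining inverts rather than deletes the DNA between. The 75 held 76.8% of Igkv counts and, without Igkv14-111, 52.4%. These are pooled counts, in which libraries with more Igkv reads weigh more. Taken per library without Igkv14-111, the middle genes held 13.6% ± 9.10 (SD, n = 16) and were the lowest of the 3 classes in 13 of 16 libraries, and the strand of Igkc held 53.0% ± 12.6. By family, also per library and without Igkv14-111, Igkv3 (13 genes) held 16.4% ± 9.86, Igkv9 (6 genes) 15.8% ± 11.4, Igkv2 (10 genes) 13.2% ± 17.6, Igkv6 (9 genes) 12.95% ± 5.49 and Igkv1 (13 genes) 11.8% ± 4.15 (SD, n = 16), while Igkv4, the largest family with 33 genes, held 8.16% ± 6.32. Some of these shares were mostly 1 gene. Pooled over libraries, Igkv9-124 held 868 of the 944 Igkv9 counts and Igkv6-32 607 of the 645 Igkv6 counts. In Igkv3 the largest member, Igkv3-2, held 433 of 1032. Each family varied widely between libraries. Igkv9 was the leading family in 6 libraries and Igkv3 in 4, whereas Igkv2 led in both libraries of Cdk8Δ/Δ Vav-Cre line 1, where it reached 60.4%, and Igkv4 in both of Cdk8 fl/fl line 4. These shares are of uniquely placed reads, and members of a family can share 50-base windows.

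**Figure D5:**
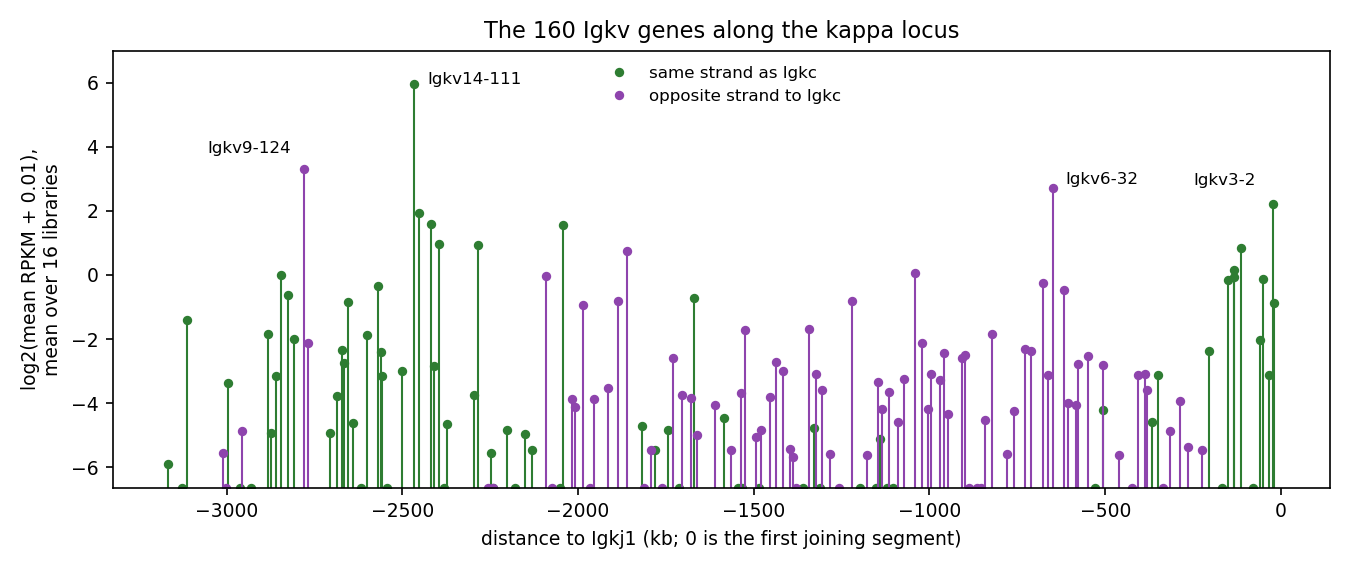
The 160 Igkv genes by distance to Igkj1 in kb (x axis, negative upstream) and by log2 of the mean RPKM over 16 libraries plus 0.01 (y axis); colour gives the strand relative to Igkc, and genes without counts sit on the lower edge. Igkv14-111, 2466 kb away, stands above all others, and the middle of the locus holds 57 genes with 5.71% of the counts.

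The lambda V genes gave few counts. Summed over the 3 Iglv genes, the Cdk8 fl/fl lines had 6, 5, 4 and 44 counts in DMSO and 6, 4, 5 and 11 with Senexin B. The Cdk8Δ/Δ Vav-Cre lines had 1, 1, 25 and 14 counts in DMSO and 1, 2, 14 and 32 with Senexin B. Only Cdk8 fl/fl line 4 and Cdk8Δ/Δ Vav-Cre lines 3 and 4 exceeded 10 counts. Iglv3 held 110 of the 175 counts and Iglv1 62, and the lambda constant genes Iglc1, Iglc2 and Iglc3 had at most 10, 27 and 53 counts in a library. Iglv1 shares 76 of its 342 windows with Iglv2, so part of its reads may not have been placed, and it lies in an intron of a gene model on the other strand, 2010309G21Rik, with which it has no exon in common.

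No light-chain V gene differed between groups at the limits used, a Benjamini-Hochberg adjusted p under 0.05 in edgeR's quasi-likelihood test and a change of more than 2-fold. Between genotypes in DMSO, 7 members passed the filter on low counts and 0 were called, where 1 of 13174 genes (0.00759%), Sva (named after its value was seen), was called, and 2 of the 7 had an unadjusted p under 0.05, against 5.32% of all genes. With Senexin B, 6 members were tested and 0 called, with 0 of 13010 genes (0.0%) called at all and 1.55% at an unadjusted p under 0.05, where no member was. For Senexin B, 7 members were tested in Cdk8 fl/fl lines, 8 in Cdk8Δ/Δ Vav-Cre lines and 13 over all lines, and in each case 0 members and 0 genes (0.0%) were called. At an unadjusted p under 0.05 stood 3.8%, 1.83% and 4.86% of all genes in these comparisons and no member. The interaction of genotype and Senexin B called 0 of 14164 genes (0.0%), and left 0.473% of them and none of 13 members under an unadjusted p of 0.05. DESeq2 called 0 members in each of these comparisons, and 0.159%, 0.0231%, 0.139%, 0.0%, 0.113% and 0.0% of all genes in the same order. The median log2 fold change of the members tested was 0.57, 0.74, -0.02, -0.12, 0.09 and -0.46 in that order, and that of all genes tested lay between -0.00365 and 0.0187. With line as a block, 45 (0.346%), 7 (0.0527%) and 134 (0.946%) genes were called for Senexin B in Cdk8 fl/fl lines, Cdk8Δ/Δ Vav-Cre lines and all lines, again with 0 members, and for the interaction 0 genes (0.0%). At an unadjusted p under 0.05 in these blocked fits stood 1 member each for Senexin B in Cdk8Δ/Δ Vav-Cre lines (10.3% of all genes) and for the interaction (3.24%), 0 for Senexin B in Cdk8 fl/fl lines (10.3%) and 2 over all lines (16.4%). Between genotypes a replicate number marks no shared line, and a block on the number, which pairs unrelated lines, left 1 member under that limit in DMSO (4.11% of all genes) and 1 with Senexin B (1.96%) and called 0 genes (0.0%) in both.

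The members closest to the limits between genotypes in DMSO were Igkv1-110 and Igkv14-111. Igkv1-110 was at 0.693, 0.692, 1.07 and 0.350 CPM in Cdk8 fl/fl lines and 0.747, 1.63, 3.17 and 3.16 CPM in Cdk8Δ/Δ Vav-Cre lines, with line 1 of the latter inside the range of the former. Its log2 fold change, Cdk8Δ/Δ Vav-Cre over Cdk8 fl/fl, was 1.61 (standard error 0.53, adjusted p = 0.897, edgeR). Of its 50-base windows, 50.9% are shared with other genes. For Igkv14-111 the log2 fold change was 1.28 (standard error 0.51, adjusted p = 0.897, edgeR), while the difference of its mean log2 levels was 1.01 over all lines. It was 0.097 with Cdk8Δ/Δ Vav-Cre lines 3 and 4 left out, the 2 lines with its highest levels, so a lower value was given by that choice. With Senexin B the log2 fold change was 0.54 (standard error 0.50) for Igkv14-111 and 1.10 (standard error 0.50) for Igkv1-110, both with an adjusted p of 1.00 (edgeR). Neither gene had groups that did not overlap, a state found for 3.14% of genes tested in DMSO and 0.999% with Senexin B. The lower members by smallest p were Igkv3-2 in DMSO, at -1.22 (standard error 1.12), and Igkv9-124 with Senexin B, at -1.03 (standard error 1.196).

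With Senexin B, the change of Igkv14-111 was -0.02 on the log2 scale (standard error 0.41) in Cdk8 fl/fl lines, -0.76 (standard error 0.59) in Cdk8Δ/Δ Vav-Cre lines and -0.40 (standard error 0.38) over all lines, each with an adjusted p of 1.00 in edgeR. With line as a block it was -0.15 (standard error 0.22, adjusted p = 0.881), -0.63 (standard error 0.19, adjusted p = 0.318) and -0.39 (standard error 0.16, adjusted p = 0.239). Leaving out 1 library or line at a time gave -1.07 to -0.33 in Cdk8Δ/Δ Vav-Cre lines and -0.68 to -0.17 over all lines, so the size of the change depended on single libraries. The difference between the genotypes in this response was -0.47 (standard error 0.30, adjusted p = 0.991, edgeR with line as a block). The change of Gm25436 in the blocked fits was -0.08, -0.60 and -0.35 (standard errors 0.22, 0.17 and 0.16), close in size to that of its neighbour. Of the 13 members tested over all lines, 0 were higher and 0 were lower in all 8 lines, where 1.96% of all genes tested were higher and 2.59% lower in all 8. The changes of other members given next are from fits without the block. Among the others, Igkv2-107 over all lines (0.72, standard error 0.75), Igkv10-96 over all lines (-1.03, standard error 0.74), Igkv1-110 in Cdk8 fl/fl lines (0.55, standard error 0.48), Igkv2-109 in Cdk8 fl/fl lines (-0.59, standard error 0.58) and in Cdk8Δ/Δ Vav-Cre lines (0.19, standard error 0.91) had the smallest p in their direction. In the interaction these were Igkv2-109 (0.80, standard error 1.14) and Igkv1-88 (-2.36, standard error 1.83), which ran from 0.035 to 1.79 and from -3.41 to -0.24 with 1 library left out.

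The constant gene Igkc (chr6:70726435-70726966, 532 exonic bases), which is spliced to every joined kappa V gene and is also part of the germline kappa transcript, was higher with Senexin B in every line. In DMSO it was at 3.35, 176.6, 16.5 and 15.04 CPM in Cdk8 fl/fl lines 1 to 4 and at 1.25, 9.51, 69.8 and 7.57 CPM in Cdk8Δ/Δ Vav-Cre lines. With Senexin B it was at 17.0, 736.6, 43.3 and 51.0 CPM and at 3.39, 16.8, 122.8 and 47.4 CPM. The ratio of Senexin B to DMSO was 2.62 to 5.09 in Cdk8 fl/fl lines and 1.76 to 6.26 in Cdk8Δ/Δ Vav-Cre lines. With line as a block, Igkc rose over all lines by 1.65 on the log2 scale (standard error 0.20, adjusted p = 0.00311, edgeR) and in Cdk8 fl/fl lines by 1.88 (standard error 0.19, adjusted p = 0.00739, edgeR), and the change in Cdk8Δ/Δ Vav-Cre lines was 1.39 (standard error 0.31, adjusted p = 0.222, and 0.000582 in DESeq2 with the block). The difference between the genotypes in this response was -0.47 (standard error 0.39, adjusted p = 0.991, edgeR with line as a block) and did not pass the test. Without the block the changes were 1.56 over all lines, 2.01 in Cdk8 fl/fl lines and 1.11 in Cdk8Δ/Δ Vav-Cre lines, with adjusted p of 1.00 (edgeR). Without Cdk8 fl/fl line 2, the line with the highest Igkc, the blocked change was 1.58 over all lines (adjusted p = 0.0179) and 1.82 in Cdk8 fl/fl lines (adjusted p = 0.264), where it was not called. With any other Cdk8 fl/fl line left out in its place, it was called, at 1.74 to 2.05 (adjusted p of 0.000534 to 0.0226, edgeR with line as a block). By line, Igkc and the V genes ranked differently: Cdk8 fl/fl line 2 had the lowest Igkv total of the DMSO libraries and the highest Igkc, with 8.78 Igkc counts per Igkv count against 0.0588 in Cdk8 fl/fl line 1. Per exonic base, Igkc ranged from 0.0773 to 49.9 times the level of Igkv14-111. The 5 Igkj segments summed to 30 and 47 counts in Cdk8 fl/fl line 2 (DMSO and Senexin B) and to 31 or fewer elsewhere.

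Genes of the surrounding pathway were examined by lists. Of 12 genes of the recombination machinery, all were tested in DMSO between genotypes and 0 called, with 3 higher and 0 lower at an unadjusted p under 0.05 and a median log2 fold change of 0.17. Over all 13174 genes tested, 314 were higher and 387 lower at that limit (5.32%), 0.00759% were called and the median was 0.0017. Rag1 was at 1.61 to 3.86 CPM in Cdk8 fl/fl lines and 9.26 to 77.8 CPM in Cdk8Δ/Δ Vav-Cre lines in DMSO, and Rag2 at 0.140 to 2.52 and 7.65 to 39.4 CPM. The groups did not overlap there for either gene, a state found for 3.14% of genes, and the log2 fold changes were 3.51 (standard error 0.70) and 3.60 (standard error 0.93), each with an adjusted p of 0.897 in edgeR. DESeq2 called both, with adjusted p of 5.14e-05 and 0.0115, where it called 0.159% of genes. With Senexin B the groups overlapped for both genes, with Rag1 at 1.22 to 13.6 CPM in Cdk8 fl/fl lines and 4.07 to 123.5 CPM in Cdk8Δ/Δ Vav-Cre lines. On the log2 scale the difference was then 2.84 (standard error 1.09) for Rag1 and 2.25 (standard error 0.98) for Rag2, and neither was called by edgeR or DESeq2. The highest Rag1 in DMSO, 77.8 CPM, was in Cdk8Δ/Δ Vav-Cre line 3, the line with the highest Igkv total. Other lines did not follow that order. Cdk8 fl/fl line 1 had an Igkv total of 56.9 CPM with Rag1 at 2.60 CPM in DMSO. Cdk8Δ/Δ Vav-Cre line 1 had 20.2 CPM with Rag1 at 17.8 CPM. A relation of Rag1 to the Igkv total was not tested. Of the 10 genes of the surrogate light chain and pre-B receptor list, 0 were called in any comparison. For Senexin B over all lines with line as a block, 1 of the 10 had an unadjusted p under 0.05, against 16.4% of all genes. Its adjusted p was 0.0308 (edgeR), and it stayed within the 2-fold limit. Cd79b, named after its values were seen, was lower with Senexin B in all 8 lines, as were 2.59% of all genes tested. Vpreb1 and Igll1, the parts of the surrogate chain, were fitted without the block, so the pairing by line was not used. With Senexin B they differed by 0.56 (standard error 0.22) and 0.64 (standard error 0.28) in Cdk8 fl/fl lines. In Cdk8Δ/Δ Vav-Cre lines they differed by -0.12 (standard error 0.20) and -0.05 (standard error 0.21), with adjusted p of 1.00 (edgeR) in both genotypes. Ighm, the mu heavy-chain constant gene, differed by 0.20 (standard error 0.27, adjusted p = 1.00, edgeR without the block) over all lines. Among the 23 locus regulators, 0 were called by edgeR, with or without the block, or by DESeq2. The share of all genes called was at most 0.00759% in edgeR without the block, 0.946% with line as a block and 0.159% in DESeq2. Of the 15 light-chain constant and joining genes, 3 were tested over all lines and Igkc was the 1 called, in the blocked fit. Iglc3 differed by -0.00284 (standard error 0.61) in the fit without the block.

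Heavy-chain V genes, counted in the same way, did not have the same leading segment in all lines. The 185 Ighv genes had 5 different leading segments by per-length level over the 16 libraries, with a share of 15.2% to 82.6%, while Igkv14-111 led the light-chain V genes in all 16. Cdk8Δ/Δ Vav-Cre lines 3 and 4 shared the leading Ighv8-7, at 81.5% and 78.5% in DMSO, with Ighv5-15 next at 14.6% and 12.99%. Their Ighv genes had 1337 to 2446 counts per library. Cdk8 fl/fl lines 1, 2 and 3 also shared a leading segment, Ighv6-3, in both treatments. It held 16.2% to 38.7% of the summed per-length level, in libraries with 26 to 70 Ighv counts. The other 2 Cdk8Δ/Δ Vav-Cre lines were led by Ighv7-1 and Ighv1-57. Below Igkv14-111, the light-chain V levels of lines 3 and 4, compared with each other, had a rank correlation of 0.13 to 0.47 over 23 members. It was 0.80 and 0.74 between the libraries within each line, with a median of 0.35 between different lines of a genotype. Over 14164 genes, deviations from the group means correlated at 0.12 and 0.21 between lines 3 and 4 across treatments. The other pairs of different Cdk8Δ/Δ Vav-Cre lines were at -0.55 to -0.06. Deviations from the mean of 4 libraries cancel within a group, so pairs of different lines tend to negative values. The mean over the 12 pairs of different Cdk8Δ/Δ Vav-Cre lines, lines 3 and 4 among them, was -0.27. Whether lines 3 and 4 share an origin was not tested, and the genotype values above count them as 2 lines.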

How the data were processed

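RNA of 16 libraries, 4 per group, was sequenced as single-end reads of 50 bases. The authors trimmed reads with Trimmomatic, aligned them with STAR to GRCm38 and deposited whole-number counts of reads per gene, made by featureCounts 1.5.1 over exons, without strand and without multimapping or ambiguous reads. Of the 16 file headers, 15 name a modified annotation folder, and the gene models are identical. Members and gene lists were chosen with earlier results of these data known. CPM and RPKM used TMM library sizes. Genes were tested with edgeR 4.0.16 (quasi-likelihood test, R 4.3.3, filterByExpr, Benjamini-Hochberg adjustment over all genes tested), within the groups compared, and called at an adjusted p under 0.05 and more than 2-fold, the limits of the study, which used DESeq2. Standard errors given with edgeR values are the absolute log2 fold change divided by the square root of the F statistic of its test. DESeq2 1.42.0, line as a block, other normalizations and filters, and leaving out each library were alternatives. The scripts were tested on simulated counts. Replicate numbers were taken to name lines and so paired DMSO and Senexin B libraries within a genotype. The labels number replicates only, and same-numbered libraries deviated together (correlations of 0.56 to 0.78 and 0.77 to 0.87 over 14164 genes). Across genotypes a number marks no shared line. Named members were the leading 2 segments of each library and those with the smallest p in each direction of each comparison, with Igkc, Iglc1 to Iglc3, Cdk8, Rag1, Rag2, Vpreb1, Igll1, Ighm and list members called. The lowest library total, 13145876 counts, puts 3 counts at 0.245 CPM or less. V gene promoters and proteins were not analysed here, so the planned promoter motif search was not made. The summed level of the early B cell marker list is not reported here.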

Additional observations from a re-analysis of the deposited data

Results flagged for a closer look

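Of 72 tests (18 measures in 4 groups of 4 libraries), 12 found a library set apart from the other 3 by Dixon's criterion at the 95% level. Some members were measured because they ranked high in a library, and the measures overlap, so this count cannot be set against chance. Cdk8 fl/fl line 1 stood apart for Igkv3-2 with DMSO (6.46 CPM, next 0.804) and with Senexin B (11.8 CPM, next 2.03). With Senexin B the same line also stood apart for Igkv14-111 (30.2 CPM, next 12.2), Gm25436 (33.7 CPM, next 14.6), Igkv1-110 (1.94 CPM, next 0.769) and Igkv1-88 (2.81 CPM, next 0.384). Cdk8 fl/fl line 2 stood apart for Igkc with DMSO (176.6 CPM, next 16.5) and with Senexin B (736.6 CPM, next 51.0). Cdk8 fl/fl line 4 with DMSO stood apart for the Iglv total (3.08 CPM, next 0.346) and for Iglv3 (2.10 CPM, next 0.231). Cdk8Δ/Δ Vav-Cre line 3 with DMSO stood apart for Igkv6-32 (7.87 CPM, next 1.76) and Igkc (69.8 CPM, next 9.51).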

How the results depend on the processing

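No light-chain V gene was called in any of the 6 comparisons under any alternative that was run. With line as a replicate block, 0 members were called, while all genes called were 45, 7 and 134 for Senexin B in Cdk8 fl/fl lines, Cdk8Δ/Δ Vav-Cre lines and all lines, against 0, 0 and 0 without it. Between genotypes a replicate number marks no shared line (mean correlation of same-numbered libraries 0.0097 in DMSO), and a replicate block on that number called 0 genes in DMSO, against 1 without it, and 0 members. Of the genes with values in the text, Igkc gained its call with line as a block, and Sva was not called with the number as a block (adjusted p = 0.962 in edgeR), a fit that pairs unrelated lines. The mean share of the leading segment was 61.3% in place of 50.1% when only segments with 10 or more counts entered, by construction from fewer segments. With Cdk8Δ/Δ Vav-Cre lines 3 and 4 left out (chosen after seeing the data), the genotype difference of the log2 Iglv total was -3.05 in DMSO and -2.25 with Senexin B, against -0.87 and -0.27, on 1 or 2 counts per remaining library. Leaving out 1 library or line at a time gave log2 ranges that crossed 0 for Igkc between genotypes in DMSO (-3.11 to 0.91) and with Senexin B (-3.24 to 0.36), in Cdk8 fl/fl lines with Senexin B without the block (-0.50 to 4.18) and in the interaction (-3.08 to 1.62), for Igkv3-2 between genotypes in DMSO (-1.99 to 0.62), for Igkv14-111 with Senexin B in Cdk8 fl/fl lines (-0.58 to 0.17, and 0.034 without line 4 with the replicate block) and for Igkv2-109 with Senexin B in Cdk8Δ/Δ Vav-Cre lines (-0.58 to 1.18). The Igkc values changed sign without 1 library of Cdk8 fl/fl line 2, and in the interaction also without Cdk8Δ/Δ Vav-Cre line 3 with DMSO. With both libraries of Cdk8 fl/fl line 2 left out, the blocked Senexin B change of Igkc in Cdk8 fl/fl lines stayed positive. Igkv3-2 changed sign without the DMSO library of Cdk8 fl/fl line 1. For single genes with Senexin B, libraries were left out of fits without the block and lines out of blocked fits, so those ranges mix both. Without crossing 0, the range was 0.062 to 1.16 for Igkv2-107 with Senexin B over all lines and -1.46 to -0.25 for Igkv9-124 between genotypes with Senexin B. The Igkv total difference between genotypes ranged from 0.43 to 1.24 in DMSO and 0.17 to 0.93 with Senexin B, and its Senexin B difference from -0.38 to 0.36 in Cdk8 fl/fl lines and -0.70 to 0.13 in Cdk8Δ/Δ Vav-Cre lines. For Iglv, leaving out the highest member gave no value where libraries reached 0 counts. Depth limits the members: 6 to 13 of 163 passed the count filter in a comparison.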
